A study of Mus musculus with 7 samples.

Results

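Podocytes are the epithelial cells that wrap the glomerular capillaries of the kidney. Their interlocking foot processes are bridged by the slit diaphragm, a cell junction built around nephrin that forms the last layer of the filtration barrier. They share a basement membrane with the glomerular endothelium, which depends on vascular endothelial growth factor made by the podocyte, and mature podocytes have left the cell cycle. In a droplet-based single-cell data set of the mouse kidney, the podocytes were taken as the cells to which the authors gave cluster number 2. These were 78 of 43745 cells (0.178%), and the remaining cells fell into 15 other clusters.

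Whole kidneys of 7 C57BL/6 mice aged 4 to 8 weeks were profiled. The labels name 1 mouse Ksp-cre-GFP (genotype Cdh16CremTmG), 1 Scl-cre-GFP (SclCremTmG) and 1 Pod-cre-GFP, all 3 carrying a Cre driver with the mTmG reporter, and 4 mice were WT. The number at the end of each cell barcode gave 7 libraries, which are called here by that number, 1 to 7. No source used here says which mouse a number stands for, and no genotypes were compared. All 7 libraries are treated alike. The labels do not mention a sort or gate, and nothing says how far a library is independent beyond its labelled kidney, so spreads over libraries may be partly technical.

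Podocytes were few in every library. Libraries 1 to 7 held 1, 6, 1, 2, 40, 21 and 7 podocytes among 2943, 5060, 1383, 2704, 14136, 12177 and 5342 cells. The share was lowest in library 1, at 0.0340% (95% Wilson interval 0.00600% to 0.192%), and highest in library 5, at 0.283% (0.208% to 0.385%), and averaged 0.127% ± 0.0826 (SD, n = 7). Those 2 intervals did not overlap. The intervals cover counting error only. The podocytes gave 197752 unique molecular identifiers (UMIs, each marking 1 captured transcript) in all, with 829 to 10064 UMIs per cell and a median of 2050.0. A UMI was seen for 10235 of 16272 genes, and 936 genes had at least 30 UMIs. Of 974 barcodes that occurred in more than 1 library, 4 belonged to podocytes.

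Levels below are CPM, a gene's UMIs summed over the cells of a library and scaled to the same total in every sum. Podocyte sums were made in libraries 2, 5, 6 and 7, which had at least 5 podocytes each and 74 of the 78 cells, and means ± SD are over these libraries (n = 4). In the smallest sum, library 2 with 6 cells, 1 UMI was worth 60.3 CPM. Folds are (podocyte mean + 10 CPM) over (mean of the 15 other clusters at equal weight + 10 CPM). The transcripts were read from their 3′ ends, so a level does not scale with gene length. Because the authors' clusters were made from these same counts, a fold describes the podocytes and carries no test.

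The cells carried the markers of their label. All 4 of Nphs1 (nephrin, the core of the slit diaphragm), Cdkn1c (the cell cycle inhibitor p57), Wt1 (a transcription factor of podocyte development) and Podxl (podocalyxin, the charged coat protein of the foot processes) were seen in 55 of 78 cells, and no cell lacked all of them. Of 6 markers, which add Synpo (synaptopodin) and Thsd7a, the median podocyte held 5, the poorest 1, and 30 cells held all 6. Nphs1 and Podxl were seen together in 71 cells, Podxl without Nphs1 in 6, and Nphs1 without Podxl in 1. At least 2 Nphs1 UMIs were seen in 66 of 78 podocytes, against 1 of 43667 cells outside the cluster, where 28 cells had any. At least 4 of the 6 markers were seen in 72 podocytes and in 3 other cells, all 3 in cluster 1.

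Detection was far above the level seen in a cell type that lacks these genes. Podxl was detected in 98.7% of podocytes, against 0.144% of the proximal tubule-like cells of cluster 3, whose median depth of 2281 UMIs was close to the 2050.0 of the podocytes. With every cell thinned to 1000 UMIs, which left out 3 podocytes and 1607 cells of cluster 3, Podxl was detected in 94.7% of podocytes and 0.0563% of cluster 3 cells. Thinned in the same way, Nphs1 was detected in 77.3% of podocytes and 0.0201% of cluster 3 cells, Cdkn1c in 74.7% and 0.101%, and Wt1 in 50.7% and 0.0362%. Without thinning, Nphs1, Cdkn1c and Wt1 were detected in 92.3%, 89.7% and 82.1% of podocytes, against 0.0604%, 0.264% and 0.0982% of cluster 3 cells. Podxl was less particular to podocytes, as it was detected in 46.25% of the endothelial-like cells of cluster 1, or 32.1% when thinned. Nphs1, Cdkn1c and Wt1 were detected in 0.4995%, 5.095% and 1.40% of cluster 1 cells without thinning.

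All 6 markers stood far above the other clusters. Nphs1 (chr7:30458315-30487223, plus strand, GRCm38) stood at 1689, 1673, 1966 and 1502 CPM in podocytes of libraries 2, 5, 6 and 7, against a mean of 0.226 CPM in the other clusters, and averaged 1707.5 ± 192 CPM, a 168-fold difference. Nphs1 had the tightest spread over libraries of the 25 genes with the largest folds (coefficient of variation 11.2%). Podxl (chr6:31519488-31563981, minus strand) had the highest level of the 6 markers, at 3499.5, 2408, 2537 and 3661 CPM in the same libraries, against 31.0 CPM in the other clusters. Its podocyte mean was 3026.5 ± 645 CPM, 74.0-fold higher, and cluster 1, which is endothelial-like, came next at 457 CPM. Cdkn1c (chr7:143458339-143461050, minus strand) was highest in library 2, with 3499.5 CPM there and 1829, 1486 and 1831 CPM in libraries 5, 6 and 7, against 3.75 CPM in the other clusters. Wt1 (chr2:105126529-105173616, plus strand) was highest in library 7, with 1549 CPM there and 845, 818 and 617 CPM in libraries 2, 5 and 6, against 0.714 CPM in the other clusters. For each of the 6 markers, every podocyte library lay above the highest other cluster.

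**Figure D1:**
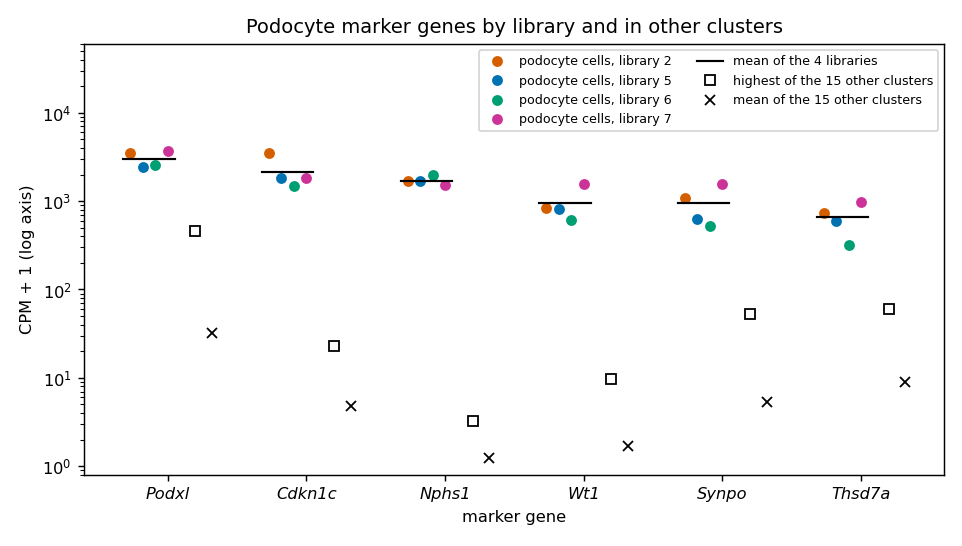
Level of the 6 podocyte markers (CPM + 1, log axis) in podocytes of libraries 2, 5, 6 and 7 (colored points, with their mean as a line), and in the highest and the mean of the 15 other clusters (square and cross). Podocyte points lie above the square for all 6 genes, with the smallest gap for Podxl, whose lowest library stood at 2408 CPM, against 457 CPM in cluster 1.

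Across all genes, 302 of 16272 (1.86%) were at least 4-fold higher in podocytes than the average over the other clusters, and 294 of these had their highest level in podocytes. A further 410 genes (2.52%) were at least 4-fold lower, 262 of them with no podocyte UMI. For 102 of these 262, the other clusters stood at least 4 times above a floor of 3 counts over all podocytes (15.2 CPM), and the rest pass 4-fold only through the pseudocount. Nothing is read from list counts against these shares, since the clusters were made from these counts. The next highest cluster after podocytes was the endothelial-like cluster 1 for 110 of those 294 genes, more than for any other cluster (33 for cluster 6). Second place can be a very low level. Cluster 1 stood at 2.285 CPM for Nphs1 and 0.688 CPM for Tcf21, but at 457 CPM for Podxl. Of the 16 cells outside cluster 2 with at least 3 of the 6 podocyte markers, 14 were in cluster 1. The part of such cells in these ranks was not tested. The level profile over all genes was also closest to cluster 1, with a Pearson r of 0.81 across 16272 genes on the log2(CPM + 10) scale, against 0.80 for cluster 4 and 0.67 for cluster 12, the lowest. These r values are descriptions across genes, which share library and depth.

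Of the 25 genes with the largest folds, 11 belong to a gene list described here, and the other 14 were found by fold alone. Clic3, a chloride intracellular channel protein, stood at 1508, 772, 1211.5 and 1220.4 CPM in podocytes of libraries 2, 5, 6 and 7, against 0.149 CPM in the other clusters (117-fold). Nupr1, a small stress-responsive nuclear protein, stood at 1810.1, 1599, 2720.2 and 3426 CPM, against 22.2 CPM (74.5-fold), with cluster 10 next. Libraries 6 and 7 lay above libraries 2 and 5 for Nupr1, whereas library 5 was the low one for Clic3. Rab3b, a small GTPase of regulated vesicle release, averaged 555 ± 262 CPM in podocytes and 0.362 CPM in the other clusters. Cldn5, the tight junction claudin best known from endothelium, averaged 845 ± 241 CPM in podocytes, above the 96.5 ± 51.4 CPM (n = 7) of endothelial-like cells. Hs3st6, a heparan sulfate sulfotransferase, averaged 547 ± 169 CPM in podocytes and 1.72 CPM in the other clusters. Rasl11a, a Ras-like GTPase, averaged 773 ± 188.5 CPM in podocytes and 7.06 CPM in the other clusters, and Angptl2, an angiopoietin-like secreted protein, 333 ± 75.8 and 3.89 CPM. Rhpn1 (rhophilin 1), Tmem54, Myom2 (myomesin 2), Mmp23 (a matrix metalloproteinase), Ddn (dendrin), Srgap1 (a GTPase-activating protein of Slit and Robo signaling) and Shisa3 were 23.1 to 33.0-fold higher, at podocyte means of 226 to 379 CPM. The Srgap1 mean of 276 CPM rested partly on library 7 and was 181 CPM without it. Library 7 gave the highest level for 17 of the 25 genes, library 2 for 5, library 6 for 2 and library 5 for 1, and the coefficient of variation over libraries had a median of 41.2% and reached 71.1%.

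The bases before the start of 4 of these genes are shown, since they lead the folds among the genes with an entry in the RefSeq promoter table (GRCm38.p6), where 17 of the 25 genes matched with 20 windows. Each is the 250 bases upstream of the RefSeq start, 5′ to 3′ on the gene's strand, at chr7:30459808-30460057 (plus) for Nphs1, chr2:25456593-25456842 (plus) for Clic3, chr7:126625471-126625720 (minus) for Nupr1 and chr14:31217623-31217872 (plus) for Sema3g, a secreted semaphorin described below. Capitals mark a match to a WT1-type motif, GNGTGGGNG, in Nphs1 and to the E-box CAGCTG in Nupr1 and Sema3g, and Clic3 has no match. The starts are those of RefSeq, whereas the gene spans are those of GENCODE. For Nphs1 and for Nupr1 (chr7:126623249-126630861, minus strand) the outermost GENCODE start lies further upstream, so that the whole window is inside the GENCODE gene.
Nphs1: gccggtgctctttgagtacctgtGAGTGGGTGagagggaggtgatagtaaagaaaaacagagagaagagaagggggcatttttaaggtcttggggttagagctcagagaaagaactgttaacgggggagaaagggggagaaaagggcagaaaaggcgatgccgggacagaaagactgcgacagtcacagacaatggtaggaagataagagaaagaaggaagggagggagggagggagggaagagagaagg
Clic3: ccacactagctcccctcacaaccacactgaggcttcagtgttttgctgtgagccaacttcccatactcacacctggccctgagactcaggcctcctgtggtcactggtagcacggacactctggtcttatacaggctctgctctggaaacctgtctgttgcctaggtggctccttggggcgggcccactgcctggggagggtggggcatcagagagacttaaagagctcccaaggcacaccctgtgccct
Nupr1: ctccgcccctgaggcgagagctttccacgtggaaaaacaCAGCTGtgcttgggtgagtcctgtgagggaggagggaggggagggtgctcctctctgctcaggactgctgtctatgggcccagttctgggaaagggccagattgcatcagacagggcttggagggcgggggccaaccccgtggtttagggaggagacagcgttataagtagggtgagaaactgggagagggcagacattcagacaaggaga
Sema3g: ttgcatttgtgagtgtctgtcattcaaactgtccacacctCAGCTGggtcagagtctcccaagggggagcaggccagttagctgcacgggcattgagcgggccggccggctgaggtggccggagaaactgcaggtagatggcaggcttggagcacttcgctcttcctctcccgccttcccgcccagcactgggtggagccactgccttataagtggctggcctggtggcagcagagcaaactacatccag
The Nphs1 match begins 227 bases before the start, and the E-boxes begin 211 bases (Nupr1) and 210 bases (Sema3g) before it. Searched on both strands, GNGTGGGNG was found in 5 of the 20 windows, against 12.7% of all 32851 windows of this length, and CAGCTG in 6, against 4271 of all windows. The motif TGCTGA was found in 2 windows, against 16.1% of all, the TEAD motif GGAATG in 3, against 12.6%, and the forkhead motif TGTTTAC in none, against 3.17%. The 20 windows had a median GC content of 60.8%, against 52.4% for all windows, and the matches were not corrected for it.

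**Figure D2:**
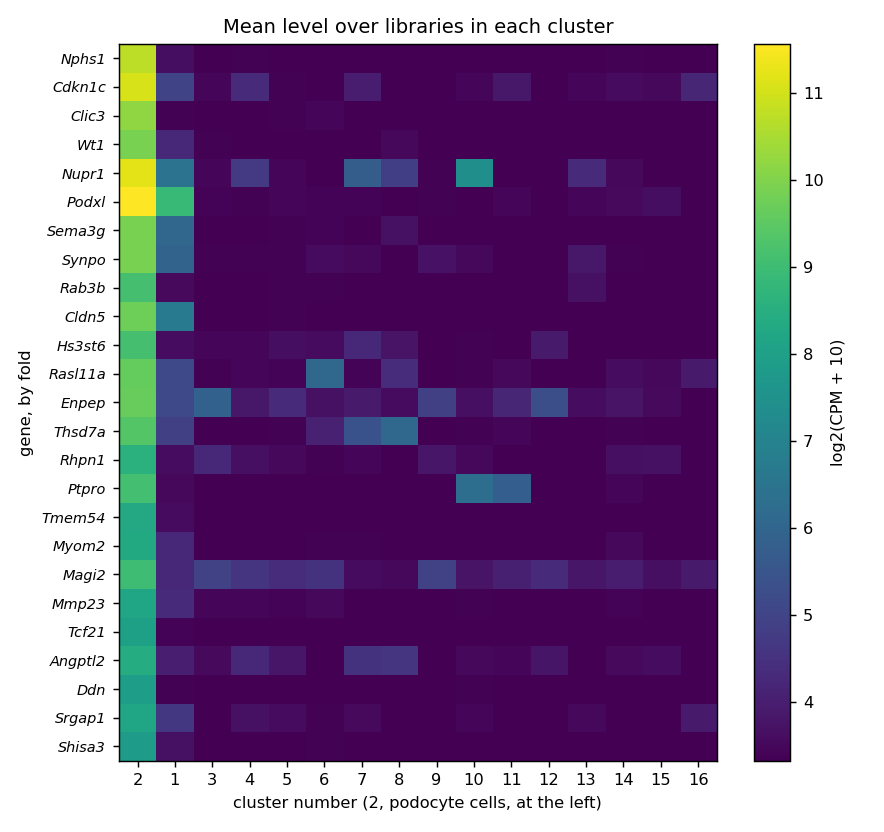
Mean level over libraries, as log2(CPM + 10), of the 25 genes with the largest folds (rows, by fold) in podocytes (cluster 2, left column) and in the 15 other clusters. All 25 were highest in podocytes, and the highest levels elsewhere were those of Podxl in endothelial-like cluster 1 (457 CPM) and of Nupr1 in cluster 10 (162 CPM).

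Of 20 slit diaphragm and foot process genes, 11 were at least 4-fold higher, 9 were within 4-fold and none was 4-fold lower. The median log2 fold was 2.54, against -0.10 over all genes and 0.37 over genes with at least 10 podocyte UMIs. The list median was 3.02 over 19 genes with undetected genes set at that floor. Besides Nphs1 and Podxl the higher genes included Thsd7a, a target of autoantibodies in membranous nephropathy (655 ± 277 CPM in podocytes and 7.98 CPM in the other clusters), Ptpro, a receptor phosphatase of the foot process (542 ± 211 and 7.79 CPM), and Magi2, a scaffold that binds nephrin (510.3 ± 210.1 and 8.47 CPM). Plce1, a phospholipase C (171 ± 15.5 and 1.29 CPM), the polarity proteins Crb2 (101 ± 50.1 and 0.118 CPM) and Mpp5 (399 ± 66.3 and 27.9 CPM), the giant cadherin Fat1 (165 ± 104 and 11.1 CPM) and the junction protein Tjp1 (198 ± 110 and 15.6 CPM) were 8.11 to 16.1-fold higher. Cd2ap, the adaptor that links nephrin to actin, stood at 340 ± 98.7 CPM in podocytes and 74.0 CPM in the other clusters, a 4.16-fold difference that was 3.70-fold without library 7. Fyn, the kinase that phosphorylates nephrin, averaged 54.1 CPM in podocytes and 44.0 CPM in the other clusters (34.0 CPM in podocytes without library 6), and was highest in cluster 15. Kirrel, a binding partner of nephrin, had only 4 podocyte UMIs, a depth at which little can be said of its level, and Pla2r1 had none.

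Of 36 actin cytoskeleton genes, 12 were at least 4-fold higher, 23 were within 4-fold and 1 (Marcks, with no podocyte UMI) was 4-fold lower through the pseudocount, and the median log2 fold was 0.73. Synpo, the actin-bundling protein of foot processes, stood at 1086, 625, 526 and 1549 CPM in podocytes of libraries 2, 5, 6 and 7, against 4.34 CPM in the other clusters, with libraries 2 and 7 above the other pair. Nes (nestin, an intermediate filament) averaged 255 ± 74.0 CPM in podocytes and 3.72 CPM in the other clusters. Daam2 (a formin) averaged 115 ± 53.3 CPM in podocytes and 0.307 CPM elsewhere, and Tmod3 (a tropomodulin that caps filaments) 392 ± 102 and 34.5 CPM. Slc9a3r2 (NHERF2, which tethers podocalyxin to ezrin) averaged 567 ± 139.9 CPM in podocytes but was higher in endothelial-like cells, at 719 CPM. Actn4 (alpha-actinin 4) was 4.32-fold higher at 510.3 ± 104 CPM in podocytes and 110.4 CPM elsewhere. The small GTPases Rhoa and Cdc42 and the actin-severing cofilin Cfl1 were less than 4-fold different, at 401, 308 and 397 CPM in podocytes and 311, 349 and 700 CPM elsewhere. Against all other cells summed, the log2 fold of Cdc42 was 1.03 and that of Cfl1 0.67, so both changed sign. Marcks, a membrane-actin linker, stood at 51.3 CPM in the other clusters, which is less than 4 times the podocyte floor of 15.2 CPM.

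Of 20 transcription factors of the podocyte lineage, 7 were at least 4-fold higher, 13 were within 4-fold, none was 4-fold lower and the median log2 fold was 0.73, or 0.87 over 19 genes with undetected genes at the floor. Besides Wt1, Tcf21, a basic helix-loop-helix factor of glomerular development, stood at 302, 101, 114 and 469 CPM in podocytes of libraries 2, 5, 6 and 7, against 0.0556 CPM elsewhere, with libraries 2 and 7 again above the others. The forkhead factors Foxc2 (166 ± 64.7 CPM), Foxd1 (166 ± 86.1 CPM) and Foxc1 (93.6 ± 27.9 CPM) stood at 0.302, 0.0271 and 3.43 CPM in the other clusters. Foxc2 and Foxd1 were detected in 24 and 20 podocytes. Hoxc8, a homeobox factor, averaged 210 ± 136 CPM in podocytes and 9.29 CPM in the other clusters, and Dach1, a co-repressor, 119 ± 55.5 and 12.6 CPM. Zbtb20, a broadly expressed zinc finger repressor, stood at 465 ± 100.1 CPM in podocytes and 305 CPM elsewhere and was highest in cluster 3, with a log2 fold of -0.47 against all other cells summed.

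Among basement membrane genes the adult glomerular collagen IV chains were higher and the ubiquitous chains were not. Of 20 genes, 6 were at least 4-fold higher, none was 4-fold lower and the median log2 fold was 0.93. Col4a3 stood at 1146, 441, 343 and 892 CPM in podocytes of libraries 2, 5, 6 and 7, against 24.7 CPM in the other clusters (20.6-fold), and Col4a4 at 1026, 607, 549 and 657 CPM, against 118 CPM (5.63-fold), with library 2 highest for both. Col4a5, the third chain of that network, averaged 135 CPM in podocytes, or 79.9 CPM without library 2, and 10.2 CPM in the other clusters. Col4a1, a chain of most basement membranes, had 3 podocyte UMIs, against 243 CPM in endothelial-like cells. Lamb2 (laminin beta 2, the mature glomerular chain) averaged 282 ± 153.5 CPM in podocytes and 16.7 CPM in the other clusters. Sparc, a collagen-binding matricellular protein, averaged 1675 ± 368 CPM in podocytes and 88.7 CPM in the other clusters, with endothelial-like cells at 1223 CPM. Npnt (nephronectin, an integrin ligand) averaged 526 ± 137 CPM in podocytes but 926 CPM in cluster 6, a 4.34-fold difference from the other clusters that was 3.85-fold without library 7. Of 21 adhesion genes, 7 were at least 4-fold higher, none was 4-fold lower and the median log2 fold was 1.63. These included the laminin-binding integrin chain Itga3 (184 ± 111 CPM in podocytes and 10.3 CPM elsewhere), its tetraspanin partner Cd151 (438 ± 169.7 and 46.0 CPM), dystroglycan Dag1 (422 ± 152 and 61.4 CPM), Itgb5 (454 ± 68.5 and 37.0 CPM) and the heparan sulfate proteoglycan Sdc4 (1665 ± 329 and 292 CPM).

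Secreted factors included the most abundant podocyte-enriched transcript of any list. Of 24 ligand and secreted-protein genes, 8 were at least 4-fold higher and 2 at least 4-fold lower, with a median log2 fold of 0.69. That median was 1.62 over 18 genes when genes with no podocyte UMI were set at the floor of 3 counts, or left out where the other clusters were under it too, and -0.07 without the 8 podocytes with the most UMIs. Igfbp7, a secreted binder of insulin-like growth factor, stood at 8266, 5680, 6583 and 7322 CPM in podocytes of libraries 2, 5, 6 and 7, against 498 CPM in the other clusters, and was detected in all 78 podocytes. Vegfa, the growth factor on which the glomerular endothelium depends, stood at 1086, 726, 320.0 and 704 CPM, against 48.1 CPM (12.4-fold), with library 6 the lowest. Its receptors Kdr and Flt1 had 1 podocyte UMI each, both in a podocyte of library 6 that held 9 of 10 endothelial markers. Endothelial-like cells held 958 ± 470 and 468 ± 152 CPM of these receptors (n = 7). Nrp1, of the receptor list, had 20 podocyte UMIs and averaged 166 ± 94.7 CPM in podocytes, against 1556.5 ± 802 CPM in endothelial-like cells (n = 7). Sema3g, a class 3 semaphorin, stood at 724, 827, 1029 and 1267 CPM in podocytes, against 4.05 CPM in the other clusters, with library 7 highest and library 2 lowest. Sema3e averaged 135 CPM in podocytes (86.1 CPM without library 7) and 0.0522 CPM elsewhere, and its receptor Plxnd1 had no podocyte UMI and 74.2 ± 29.7 CPM in endothelial-like cells. Htra1, a secreted serine protease, averaged 400 ± 108 CPM in podocytes and 12.2 CPM in the other clusters. Gas1, a membrane-anchored growth arrest protein, averaged 344 ± 216 and 19.1 CPM, and the ephrin Efnb1, a slit diaphragm component, 262 ± 78.2 and 12.8 CPM. Ctgf, a matricellular target of YAP, stood at 121, 55.1, 137 and 563 CPM in podocytes, so its mean of 219 CPM was 104 CPM without library 7.

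Of 24 receptor genes, 6 were at least 4-fold higher, 17 were within 4-fold, 1 (Kdr) was 4-fold lower and the median log2 fold was -0.18, or 0.18 over 20 genes with undetected genes at the floor. Pth1r, the parathyroid hormone receptor, stood at 1810.1, 616, 709 and 845 CPM in podocytes of libraries 2, 5, 6 and 7, against 137 CPM in the other clusters, with library 2 above the rest and 403 CPM in cluster 4. The natriuretic peptide receptors Npr1 and Npr3 averaged 292 ± 69.8 and 216 ± 123 CPM in podocytes and 5.59 and 0.649 CPM in the other clusters. Robo2, a Slit receptor that binds the nephrin complex, averaged 155 ± 83.5 CPM and Fgfr1 222 ± 88.7 CPM, against 1.63 and 14.8 CPM elsewhere. Ntrk3, a neurotrophin receptor, averaged 116 CPM (74.2 CPM without library 2) and 1.62 CPM elsewhere. Of 5 surface peptidases, 3 were at least 4-fold higher, namely Enpep, which cleaves angiotensin II (798 ± 207 CPM in podocytes and 11.03 CPM elsewhere), Dpp4 (553 ± 246 and 21.3 CPM) and Mme, or neprilysin (213 ± 110.2 and 41.8 CPM). Mme was higher in cluster 7, at 287 CPM, and was 3.25-fold without library 7. Ace, which makes angiotensin II, had 1 podocyte UMI. Of 11 complement genes, 2 were at least 4-fold higher, 6 were within 4-fold and 3 were at least 4-fold lower. The higher genes were the membrane-bound inhibitors Cd59a (982 ± 79.8 CPM in podocytes and 61.5 CPM elsewhere) and Cd55 (121 ± 52.2 and 11.4 CPM). Other regulators of that list were not raised in this way. Cr1l was within 4-fold, at 61.2 ± 21.5 CPM in podocytes and 44.7 CPM elsewhere, as was Cd46, with 1 podocyte UMI. The macrophage genes C1qa, C1qb and C1qc of that list had no podocyte UMI.

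A list of 59 genes whose mutation causes nephrotic syndrome or related glomerular disease overlapped the lists above. Of these, 19 were at least 4-fold higher in podocytes and also had their highest level there, and none was 4-fold lower. The median log2 fold was 0.49, or 1.06 over 50 genes with undetected genes at the floor. The 19 were slit diaphragm, actin, matrix, adhesion and transcription factor genes already described, with Arhgap24 (a GTPase-activating protein, 331 ± 162 CPM in podocytes and 66.1 CPM elsewhere, 3.71-fold without library 2), Tns2 (tensin 2, 224 ± 52.1 and 19.4 CPM), Myo1e (an unconventional myosin, 150 ± 115 and 14.3 CPM) and Kank1 (153 ± 98.8 and 21.2 CPM, 3.91-fold without library 7). Coq2, of coenzyme Q synthesis, stood at 46.0 CPM in podocytes, a 1.04-fold difference. Cubn, the endocytic receptor of the proximal tubule, had 10 podocyte UMIs and a 1.04-fold difference, with 36.6 CPM in podocytes, or 18.4 CPM without library 6, and a log2 fold of -1.44 against all other cells summed.

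Of 17 cell cycle genes, 9 had no podocyte UMI, among them Mki67, Top2a, Birc5, Ccna2, Ccnb1, Ccnb2 and Pcna. On the pseudocount scale 1 (Cdkn1c) was at least 4-fold higher and 7 were at least 4-fold lower. Of those 7, Ccnd2, a D cyclin, had 1 UMI, and Birc5 and Top2a passed 4-fold at the floor of 3 counts. The other 4 (Mki67, Ccna2, Ccnb2 and Pcna) stood at 35.45 to 49.8 CPM elsewhere, less than 4 times the floor. Their median log2 fold was -1.74, or -1.30 over 16 genes with undetected genes at the floor. Birc5, which acts in cell division, stood at 76.4 CPM in the mean of the other clusters, and Top2a at 74.1 CPM, against a podocyte floor of 15.2 CPM (3 counts over all podocytes). Cluster 16, of 42 cells, held the highest levels of both, at 736 and 623 CPM, and each of the 15 clusters has equal weight in the mean. Ccna2 and Ccnb2 were also highest in cluster 16, and Mki67 and Pcna in cluster 9. At this depth the absence of a UMI does not show the absence of a transcript. The D cyclin Ccnd1 averaged 53.0 CPM in podocytes (27.7 CPM without library 5) and 148 CPM elsewhere. Cdkn1b, another inhibitor of the same family as Cdkn1c, had 10 podocyte UMIs and 86.4 CPM, or 36.9 CPM without library 7, against 36.8 CPM elsewhere.

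Of 17 genes that respond to tissue dissociation, none was at least 4-fold higher, 11 were within 4-fold and 6 were at least 4-fold lower (3 without library 2), of which Egr1, with no podocyte UMI, passed only through the pseudocount, with a median log2 fold of -1.41, or -0.78 with undetected genes at the floor. Egr1 and Fosb had no podocyte UMI, Fos had 2 and Ier2 had 1, whereas the other clusters averaged 49.0, 16.6, 177 and 115 CPM for these immediate early genes. Junb averaged 47.2 CPM in podocytes (24.8 CPM without library 6) and 236 CPM in the mean of the other clusters, in which cluster 12 held 1766 CPM. Btg2, another immediate early gene, averaged 62.3 ± 11.6 CPM in podocytes and 145 CPM elsewhere. Against all other cells summed, the log2 fold was 0.53 for Junb and 0.96 for Btg2, so both changed sign. Jun (133 ± 57.3 CPM in podocytes and 123 CPM elsewhere) and Jund (544 ± 151 and 348 CPM) averaged close to or above the other clusters. The chaperones Hsp90ab1 (882 ± 56.0 CPM in podocytes and 877 CPM elsewhere) and Hsp90aa1 (343 ± 94.7 and 349 CPM) differed little, though against all other cells summed Hsp90aa1 had a log2 fold of 0.71. None of 40 nuclear oxidative phosphorylation genes and none of 13 mitochondrial genome genes was 4-fold different, with median log2 folds of -0.20 and -0.17. The median was -0.10 over all genes and 0.37 over genes with at least 10 podocyte UMIs. All 40 and 12 of the 13 had at least 10 podocyte UMIs. Of 15 glycolysis genes, none was 4-fold higher and 1 (Pfkp, with no podocyte UMI) was 4-fold lower through the pseudocount, since its 37.8 CPM elsewhere is less than 4 times the floor. The median log2 fold was -0.85, and 3 genes were 4-fold lower on the same scale without library 5. Gapdh averaged 530 ± 136 CPM in podocytes and 839 CPM in the other clusters, and the glucose transporter gene Slc2a1 had 2 podocyte UMIs, against 29.95 CPM elsewhere.

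**Figure D3:**
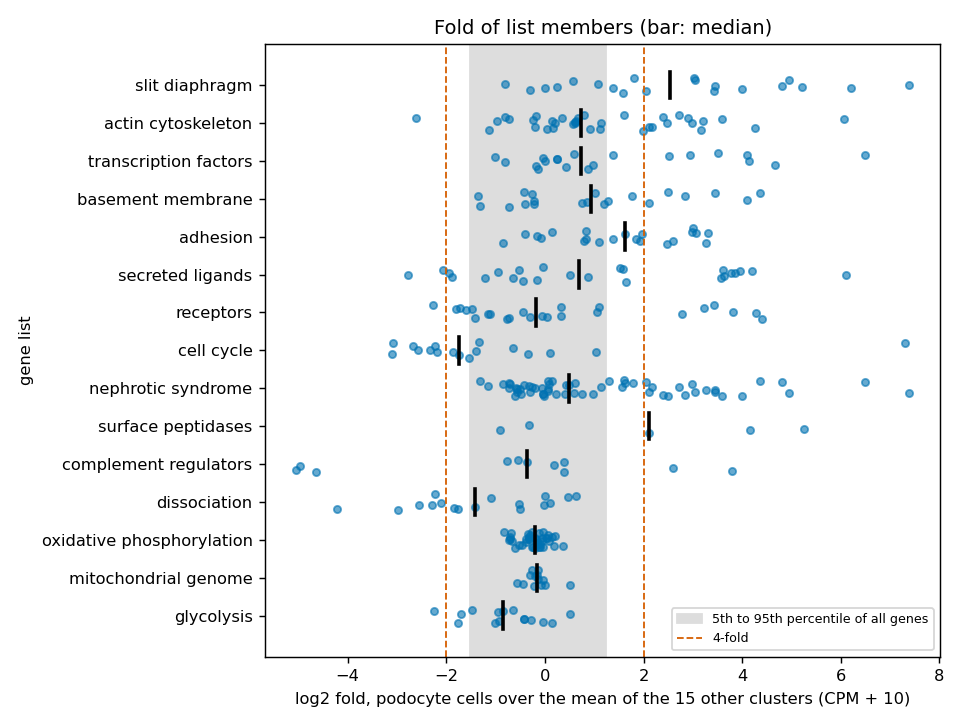
Log2 fold of every measured member of 15 gene lists (points), podocytes over the average of the 15 other clusters, with the list median (bar), 4-fold in either direction (dashed) and the range of the middle 90% of all genes (gray). The slit diaphragm list has the highest median (2.54) and the cell cycle list the lowest (-1.74).

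The genes with the lowest folds were those of leukocytes. S100a8, a neutrophil calgranulin, had no podocyte UMI, against 5776.5 CPM in the mean of the other clusters, and was at least 381-fold lower. Jchain, S100a9, Ccl5 and Cd52 followed in that order, all with no podocyte UMI, at 297, 247, 158 and 69.3-fold lower at the least. The MHC class II genes H2-Ab1 and H2-Aa had 1 and 3 podocyte UMIs, and Tyrobp, Gzma and Retnlg had none. Clusters 11, 12, 13 and 15 held the highest levels of these 10 genes, such as 86546 CPM for S100a8 in cluster 12, and each of the 15 clusters has equal weight in the mean.

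Markers of other glomerular cell types were few for endothelial and mesangial cells, and those of parietal epithelial cells went both ways. Of 10 endothelial markers, 16 UMIs were found in all, summing to 0, 18.4, 320.0 and 0 CPM in libraries 2, 5, 6 and 7, and 14 of the 16 were in 1 podocyte of library 6. That cell held 9 of the 10 endothelial markers beside 22 UMIs of podocyte markers, among 2701 UMIs. Of 10 mesangial, pericyte or smooth muscle markers, 7 had no UMI and the others 3 in all, with sums of 0 to 27.6 CPM. The 10 parietal epithelial markers summed to 302, 175, 251 and 235 CPM in podocytes of libraries 2, 5, 6 and 7, against 316 CPM in the other clusters. None of the 10 was at least 4-fold higher and 3 were at least 4-fold lower. These 3 were Krt8, with 1 UMI, and Krt18 and Cd44, with no UMI, which passed only through the pseudocount. Of the 10 parietal markers, 4 had no UMI, and of the 40 UMIs 24 were Krt7, a keratin, at 158.5 ± 62.2 CPM in podocytes and 124 CPM in the other clusters. The adhesion molecule Ncam1 had 7 UMIs and was highest in podocytes, at 38.4 CPM, against 3.21 CPM in the other clusters, and the claudin Cldn1 had 4 UMIs. The part of parietal cells in these values was not tested. The fibroblast markers Col1a1, Col3a1 and Dcn had no UMI, whereas Col1a2, a chain of collagen I, had 23 UMIs in 20 podocytes, at 362, 101, 45.7 and 141 CPM, against 3.37 CPM in the other clusters. Of 10 leukocyte markers, 8 had no UMI, and Cd74 had 14 UMIs in 4 podocytes.

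Proximal tubule transcripts were present in podocytes and were concentrated in few cells. The 15 proximal markers made up a median of 0.424% of a podocyte's UMIs (0.0536% to 6.48%), against 3.84% in the proximal tubule-like cluster 3 and medians of 0.398% to 0.609% in cluster 1 and clusters 10 to 15. In CPM, the markers summed to 12670, 15394, 16618 and 1502 in podocytes of libraries 2, 5, 6 and 7, with library 7 far below the rest. None of the 15 markers was at 0. The 8 podocytes with the highest proximal share held 61.4% of the 2673 proximal UMIs, each with at least 2.14%, and 5 of them exceeded the median of cluster 3. In these 8 cells the podocyte markers made up a median of 0.440% of UMIs, against 1.065% in the other podocytes. Their median depth was 4371 UMIs, against 1976.5 UMIs, and each held at least 8 UMIs of podocyte markers. A single cell of library 5, the deepest at 10064 UMIs, held 311 of the 613 Kap UMIs and 510 of the 891 S100g UMIs of all podocytes, with 20 UMIs of 5 podocyte markers and no Nphs1 UMI. Kap is an androgen-regulated gene of the proximal tubule and S100g a calcium-binding protein of the tubule. The part of droplets with more than 1 cell in these values was not tested. Without the 8 cells, Nphs1 averaged 2102 CPM.

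**Figure D4:**
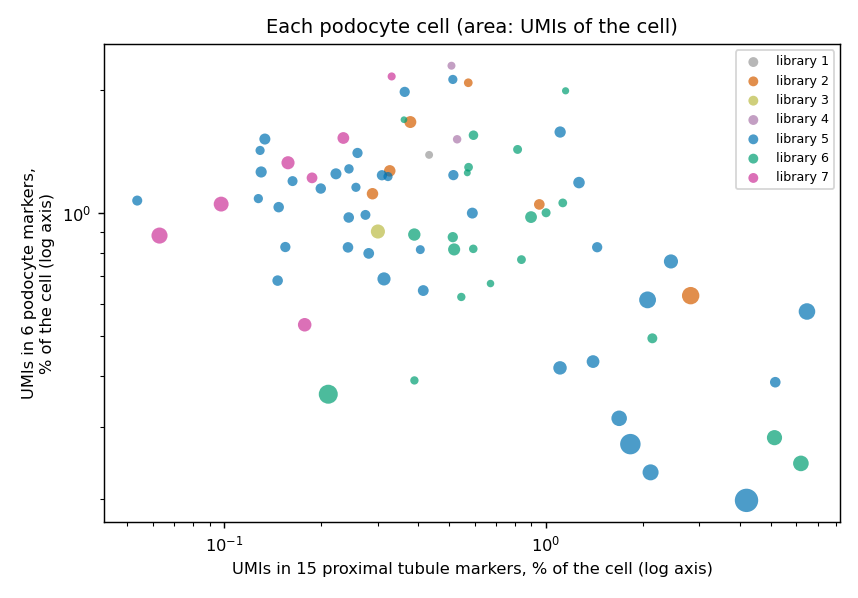
Share of UMIs in the 6 podocyte markers (vertical, log axis) against the share in the 15 proximal tubule markers (horizontal, log axis) for each of the 78 podocytes, colored by library, with point area showing the UMIs of the cell. The 8 cells with at least 2.14% proximal UMIs have a median podocyte share of 0.440%, against 1.065% in the others.

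Among the 8 genes with the highest variance over mean between cells, 4 were mitochondrial, 3 are tubule transcripts and 1 was the nuclear RNA Malat1. Over 75 podocytes thinned to 1000 UMIs and 465 genes, the variance over mean had a median of 1.11, where 1 is the value of pure counting noise. The 8 highest values were those of mt-Co1 (25.1), mt-Atp6 (23.1), Malat1 (22.4), Gpx3 (19.9), mt-Co3 (19.2), S100g (17.5), mt-Co2 (16.4) and Kap (14.3). Podocyte genes had lower values, with 3.96 for Igfbp7, 2.59 for Cdkn1c, 1.97 for Nphs1, 1.47 for Podxl and 1.38 for Wt1. This measure can rise with a gene's mean, so it does not rank variability between genes of unlike level. The mean at 1000 UMIs was 83.9 UMIs for Malat1 and 26.4 for mt-Atp6, against 2.16 for Nphs1 and 0.853 for Wt1. Kap and S100g had means of 1.81 and 2.88 UMIs, near that of Nphs1. Mitochondrial UMIs were under 10% in 53 podocytes and at least 20% in 13, of which 6 were in library 5, 4 in library 6, 2 in library 7 and 1 in library 4. The 13 cells had a median podocyte marker share of 0.880%, against 1.001% in the 53 cells, and a median of 2823 UMIs, against 1941 UMIs.

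Some genes differed between libraries among podocytes by more than counting error. These were chosen after their values were seen and are descriptions. Fgfbp1, a carrier of fibroblast growth factors, had 2, 47, 0 and 10 podocyte UMIs in libraries 2, 5, 6 and 7, so that library 6 stood at 0 of 43747 UMIs (exact 95% Poisson upper limit 84.3 CPM), against 432 CPM (317 to 574) in library 5. The ribosomal protein gene Rpl29 had no podocyte UMI in library 6 and 717 to 845 CPM in the other 3, and the other cells of library 6 were low as well, at 35.7 CPM, against 631 to 892 CPM. Xist, the RNA of the inactive X chromosome, was found in 7 of 7 podocytes of library 7 (1784 CPM, with 2737 CPM in its other cells) and in no podocyte of libraries 2, 5 and 6. Ddx3y, a gene of the Y chromosome, stood at 0 CPM in the podocytes and in the other cells of library 7. In libraries 2, 5 and 6 it had 0, 11 and 3 podocyte UMIs, and 81.5, 56.1 and 60.25 CPM in the other cells. The part of the animals' sex in the values of library 7 was not tested. The MHC class I genes H2-Q7 and H2-Q6, close paralogs whose reads may be divided uncertainly, were podocyte-enriched at 2494 ± 1124 and 707 ± 107 CPM, against 119 and 32.2 CPM in the other clusters. H2-Q7 stood at 2353, 1912, 4115 and 1596 CPM, with library 6 above the rest. Kap stood at 2051, 3106, 5166 and 0 CPM in podocytes, beside 16749, 1628, 10746 and 166 CPM in cluster 3 of the same libraries. In library 5, 311 of the 338 podocyte Kap UMIs came from 1 cell, so the value of that library rests largely on it.

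Podocytes yielded more genes per UMI than the other cells of their library. At 1000 UMIs per cell, the median podocyte showed 558, 610, 650, 541.5, 608.5, 599 and 651 genes in libraries 1 to 7, against 507, 506, 528, 516.5, 505, 507 and 487 genes for the other cells. Podocytes were higher in 7 of 7 libraries, by 94.5 ± 45.6 genes (SD, n = 7). Most of the other cells were the 26482 cells of cluster 3. Without thinning, endothelial-like cluster 1 had a median of 916 genes at 1658 UMIs, and podocytes 1041.5 genes at 2050.0 UMIs. At 1000 UMIs podocytes were not compared with cluster 1 alone, so the difference is not shown to be particular to podocytes. Median UMIs per cell did not show a common direction, with 2171 in podocytes and 2263 in other cells as means over libraries, and podocytes higher in 3 of 7 libraries. The mitochondrial share had a median of 6.83% over all podocytes and 0.874% to 49.4% among cells. By library, the medians averaged 9.87% in podocytes and 19.1% in other cells, a difference of -9.22 ± 7.35 percentage points. Podocytes were lower in 5 of 7 libraries, with medians of 10.8%, 6.62%, 6.27% and 6.57% in libraries 2, 5, 6 and 7, against 20.1%, 17.7%, 19.1% and 23.4% in the other cells. They were slightly higher in libraries 1 and 4, which held 1 and 2 podocytes. Against endothelial-like cells of the same library, the podocytes' mitochondrial share differed by 0.41 points. As these measures come from the counts that were clustered, they are given without a test.

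**Figure D5:**
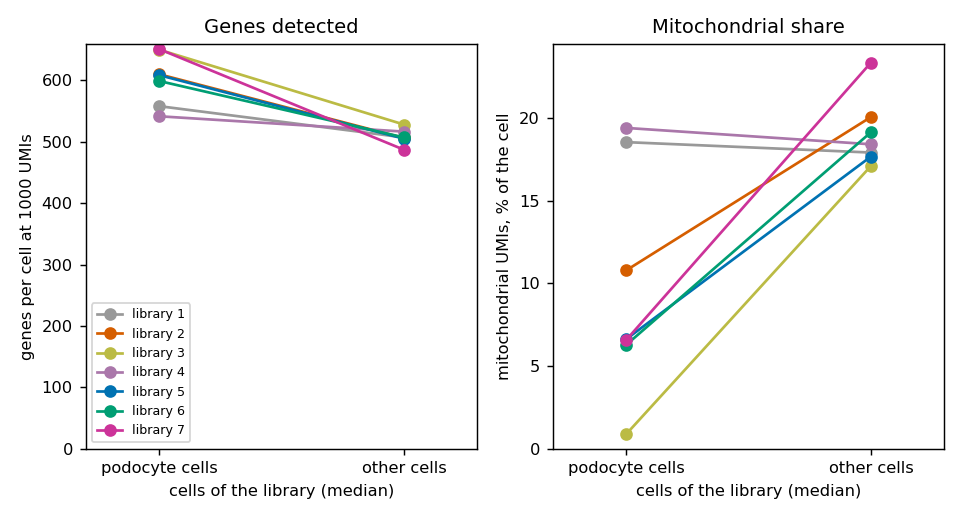
Median genes detected per cell at 1000 UMIs (left) and median mitochondrial share (right) in podocytes and in the other cells of each library, joined by a line per library. Genes detected were higher in podocytes of all 7 libraries, and the mitochondrial share was lower in 5 of 7.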

How the data were processed

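The deposited matrix holds UMI counts per gene and cell, made by the authors from 10x 3′ libraries using Cell Ranger 1.3 and the STAR aligner against mm10 (build GRCm38.p4), per the submitters' processing notes. The authors' cluster number heads each cell. Cell filters, clustering and the treatment of doublets are not given in the sources used here, and no doublet caller was run. The matrix has 43745 cells, whereas the labels state 57979.

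Each library's cells of a cluster were added up, if there were 5 or more, and the sums scaled to CPM, with a pseudocount of 10 CPM in folds (Python 3.11.15, numpy 2.4.6, scipy 1.17.1, pandas 2.3.3). Library totals ran from 4217169 to 49997616 UMIs. The computation was tested on simulated data. Thinning drew 1000 UMIs per cell with a fixed seed. Exact sign-flip tests planned for UMIs, genes and mitochondrial share per cell are not reported, because the clusters were made from the same counts, and no p-value is given.

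The members and lists were chosen with earlier results of these data known. Named genes include the 25 with the largest fold among genes with at least 30 podocyte UMIs in all, seen in at least 3 libraries. They also include the 10 lowest among genes of at least 200 CPM elsewhere and list members by fold and level with at least 10 UMIs. Members highest in another cluster, the markers and the 8 genes with the highest variance over mean were named as well. Fgfbp1, Rpl29, Xist, Ddx3y, H2-Q7, H2-Q6, members with fewer than 10 UMIs and endothelial receptors were named after their values were seen. Alternatives were other pseudocounts, references, sums, thinning depths, cells left out and libraries left out. Gene positions are from GENCODE on GRCm38. Kirrel2, Kirrel3, Trpc6, Lmx1b and Sema3a are not analysed here. A few genes are not reported here and were left out of the lists and their counts.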

Additional observations from a re-analysis of the deposited data

Results flagged for a closer look

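Values of 135 genes and measures were compared over libraries, and 17 were marked because a single library lay far from the rest by Dixon's criterion. The criterion marks about 1 in 20 groups of normally distributed values, a rate that does not hold for sparse counts. A gene with UMIs in only 1 of the 4 podocyte libraries passes it whatever its count. The 17 are therefore not compared with a number due to chance. The share of podocytes and the 3 depth measures were not among the 17.

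Library 7, with 7 podocytes, stood apart for 5 genes. Xist had 1783.6 CPM there and 0 in the other 3, Ctgf 563.2 CPM (55.1 to 137 CPM in the others), Gapdh 328.6 CPM (569.8 to 617 CPM), Hsp90ab1 797.9 CPM (905 to 914 CPM) and the tubule gene Gpx3 891.8 CPM (7063 to 7996 CPM). The summed proximal markers were likewise lowest in library 7, at 1502 CPM, against 12670 to 16618 CPM in the others.

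Library 6 stood apart for Rpl29, at 0 CPM (717 to 845 CPM in the others), and for Cd74, at 274.3 CPM (0 to 18.4 CPM), whose 14 UMIs were in 4 cells. The podocyte with 14 endothelial marker UMIs, also in library 6, had 0 Cd74 UMIs. Library 5 stood apart for S100g, at 7297.3 CPM (543 to 1455 CPM), of which a single cell held 57.2% of all podocyte UMIs of the gene. Library 2, the smallest sum, stood apart for the junction gene Tjp1, at 362.0 CPM (129 to 160.0 CPM), and for Tns2, at 301.7 CPM (188 to 206 CPM).

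The other 7 marks rest on 1 or 2 UMIs in the library, with 0 in the rest. These were Flt1, Kdr and Ier2, each at 22.86 CPM, and H2-Aa, at 45.72 CPM, in library 6, and Ace, Slc2a1 and H2-Ab1, each at 9.191 CPM, in library 5.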

How the results depend on the processing

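Between labelled groups, no paired analysis was possible because no library could be tied to a labelled replicate. Podocytes and other cells were paired within each library for the per-cell measures. The count of genes at least 4-fold higher in podocytes (302) was 535 with sums of at least 1 cell and 465 with cells thinned to 1000 UMIs. The count at least 4-fold lower (410) was 893 with a pseudocount of 5 CPM, 181 with 20 CPM, 179 against all other cells summed and 704 with thinned cells. The median log2 fold of the 25 leading genes (5.26) was 5.90 with a pseudocount of 5 CPM, 4.71 with 20 CPM, 5.65 against all other cells summed and 6.00 with sums of at least 1 cell. Against all other cells summed, 23 of 198 named genes changed sign, of which Junb (0.53) had been at least 4-fold different. With sums of at least 1 cell 26 changed sign, with thinned cells 24, and without 1 library 2 to 10. The mitochondrial difference was 0.411 points against endothelial-like cells, and the gene difference 141.6 genes at 1500 UMIs. Leaving out 1 library at a time gave 288 to 346 higher genes, 387 to 596 lower genes, a median log2 fold of 5.08 to 5.41, a podocyte share of 0.1004% to 0.142%, 82.9 to 106.1 more genes, a mitochondrial difference of -10.9 to -7.96 points and a UMI difference of -324.2 to 69.8. The UMI difference was positive without library 4 (44.8) and without library 5 (69.8), and -240.5 without library 7. All 25 leading genes stayed at least 4-fold higher in every setting tried, as did 70 of 77 named genes at least 4-fold higher. The other 7 were Cd2ap, Actn4, Arhgap24, Kank1, Npnt, Pth1r and Mme, whose lowest folds were 3.70, 3.91, 3.71, 3.91, 3.76, 3.34 and 2.36. With 78 podocytes, genes of a few UMIs cannot be ranked. The cause of these shifts was not tested.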
